A study of Oryza sativa with 5 samples.

Results

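Short regions of histone H3 trimethylated at lysine 27 (H3K27me3) that also carry histone H3 trimethylated at lysine 4 (H3K4me3) are described here in male meiocytes of rice (Oryza sativa), the pollen mother cells, at early prophase I. They were chosen by the peak calls of both marks. The regions of a mark are the bases covered by peaks in both of its replicate lists. A short dual-mark region is an H3K27me3 region under 2000 bp that shares at least 1 bp with an H3K4me3 region. There were 2468 of them among 16414 H3K27me3 regions, or 17.3% of the 14268 H3K27me3 regions under 2000 bp. The other 11800, here called short single-mark regions, shared no base with an H3K4me3 region. Some of them did overlap a peak of 1 H3K4me3 list only. With H3K4me3 replicate 1 alone 3254 short H3K27me3 regions overlapped H3K4me3, and with replicate 2 alone 2758. Of H3K27me3 regions of any length, 19.5% overlapped H3K4me3, and of H3K4me3 regions 13.9% overlapped H3K27me3. These shares are set by the rule and are no test of it.

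H3K4me3 is written by COMPASS-type methyltransferases and usually sits on the first nucleosomes of transcribed genes. H3K27me3 is written by Polycomb repressive complex 2 and in plants commonly covers whole silent genes. Where both are mapped to one place, as at the bivalent promoters known from mouse embryonic stem cells, the nucleosomes may carry both or different cells may carry one each. In early prophase I chromosomes condense, pair and recombine. In budding yeast and mouse, H3K4me3 is linked to the sites of meiotic DNA breaks.

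The study held 5 samples from these cells: 2 libraries precipitated with anti-H3K4me3, 2 with anti-H3K27me3, labelled as biological replicates, and 1 input library, not analysed here. The labels give no cultivar, treatment or plant age, and all groups share 1 cell type. Small pellets of cross-linked cells were lysed, and their chromatin was trimmed with micrococcal nuclease and sonicated. The 4 deposited peak lists hold no read counts, so depth is unknown. Both marks called in 1 place need not lie on the same molecules, since each library averages many cells. No source used here names the genome build. Positions are therefore those of the lists, no position was assigned to a gene, exon, intron or UTR, and the labelled cell type could not be checked against marker genes.

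The H3K27me3 libraries stood apart from each other in what they shared with H3K4me3. Of the 16536 peaks under 2000 bp in H3K27me3 replicate 1, 3830 overlapped an H3K4me3 region, or 23.2% (95% Wilson interval 22.5 to 23.8%, here and below for counting error only). In replicate 2 it was 2440 of 16878, or 14.5% (13.9 to 15.0%). Nearly all of these replicate 2 peaks, 97.9%, held a dual-mark region, against 50.8% of those of replicate 1. The set thus follows replicate 2 closely. Given also for 1 H3K27me3 list alone are the number of regions, the share enclosing H3K4me3 and the summit offset. The gap to the next H3K27me3 region and the difference of chromosomes 11 and 12 are given so too. Rank differences and the share with the wider replicate 1 peak are given as ranges with 1 library left out. The other measures are given only for the bases in both lists. The part that the difference between the libraries plays in the results was not tested.

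Dual-mark regions had a median length of 692 bp. There were 784 under 500 bp, 941 of 500 to under 1000 bp and 743 of 1000 to under 2000 bp. Longer regions more often met H3K4me3: the share was 11.3% (10.6 to 12.1%), 21.7% (20.5 to 22.9%) and 24.7% (23.2 to 26.2%) in the 3 length classes, and 33.9% at 2000 bp and over. A longer region has more bases in which to meet an H3K4me3 region, so this order is a description. The bases in both marks had a median of 326 bp per region (quartiles 232 and 492 bp). By class this median was 240 bp, 379 bp and 430 bp. H3K4me3 filled a median of 80.2% of the regions under 500 bp, 55.0% of those of 500 to under 1000 bp and 31.5% of the longest class. Altogether 943 kb of the 1990 kb in dual-mark regions, or 47.4%, lay in H3K4me3, against 11.9% of the bases of H3K4me3-bearing regions of 2000 bp and over.

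The commonest arrangement was a single H3K4me3 region lying wholly inside the H3K27me3 region. It was found in 1157 of the 2468, or 46.9% (44.9 to 48.9%), with a median of 333 bp of H3K4me3 in 928 bp of H3K27me3. In 868 (35.2%) the marks were staggered, each running past the other at one end, with 265 bp shared at the median. In 238 (9.64%) the H3K27me3 region lay wholly inside a wider H3K4me3 region, with medians of 324.5 bp and 588 bp. The remaining 205 (8.31%) held more than 1 H3K4me3 region: 198 held 2 and 7 held 3.

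The arrangement changed with length. Among regions under 500 bp, H3K4me3 lay inside in 16.6% (14.1 to 19.3%), while 56.8% were staggered and 24.6% lay inside H3K4me3. At 500 to under 1000 bp H3K4me3 lay inside in 54.7% (51.5 to 57.9%), and at 1000 to under 2000 bp in 68.9% (65.5 to 72.1%), where only 2 regions (0.269%) lay inside H3K4me3. The share with several H3K4me3 regions went from 2.04% to 7.65% and 15.7%. A longer H3K27me3 region has more room to enclose an H3K4me3 region, so this too is a description. The length of the H3K4me3 region hardly followed that of the H3K27me3 region (Spearman correlation 0.068 over 2263 regions with a single H3K4me3 region, which share their libraries).

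**Figure D1:**
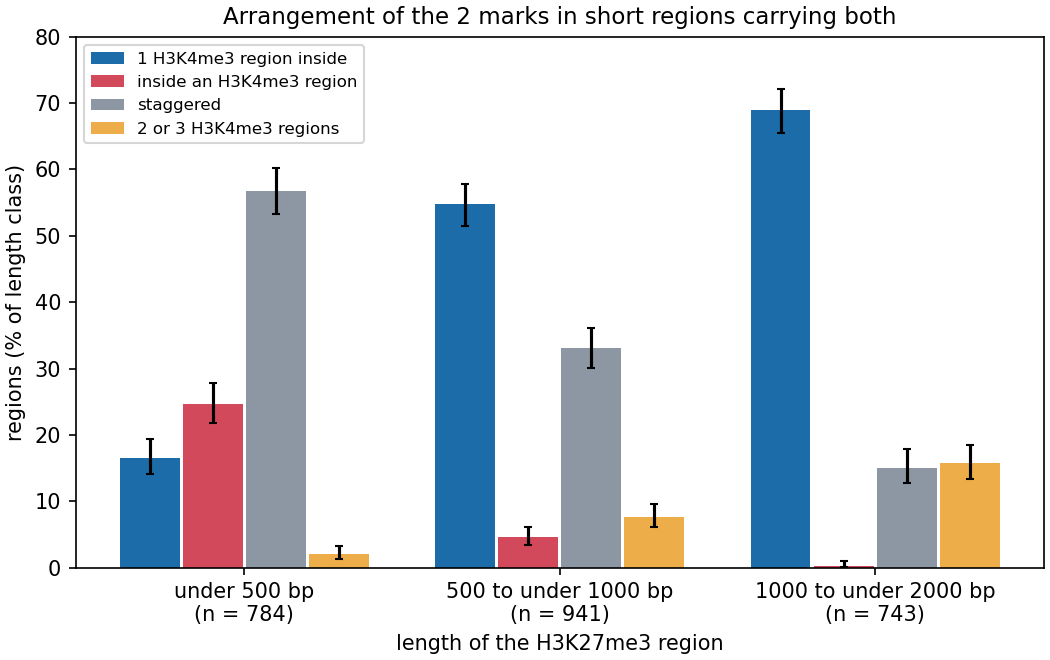
Share of short dual-mark regions in each arrangement (% of the length class) for 3 classes of H3K27me3 length; bars are shares and error bars 95% Wilson intervals. The share with 1 H3K4me3 region inside went from 16.6% under 500 bp to 68.9% at 1000 bp and over, while staggered regions went from 56.8% to 15.1%.

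These shares depended on the lists. H3K4me3 lay inside in 58.4% of the 3830 regions obtained with H3K27me3 replicate 1 alone and in 46.1% of the 2440 obtained with replicate 2 alone. With H3K4me3 replicate 1 alone, whose peaks are wider, it was 32.7% of 3254 regions, and 21.7% lay inside H3K4me3. With H3K4me3 replicate 2 alone it was 46.2% of 2758 regions. In all 4 versions H3K4me3 inside H3K27me3 was more frequent than the reverse. It was not always the commonest arrangement. With H3K4me3 replicate 1 alone staggered regions were more frequent, at 40.5%. They were so too with a length limit of 1000 bp, at 43.8% against 37.4%.

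Where the H3K4me3 region was enclosed, the H3K27me3 flanks on its sides differed by 218 bp at the median. The shorter H3K27me3 flank measured 93 bp at the median (quartiles 39 and 189 bp) and the longer one 372 bp (194 and 669 bp). In 338 of the 1157 (29.2%) the shorter flank was under 50 bp, and in 268 (23.2%) both flanks reached 200 bp. In 361 (31.2%) the shorter flank was at least 50% as long as the longer one. The flank toward lower coordinates had a median of 194 bp and that toward higher coordinates 188 bp, close to each other. Staggered regions were split evenly too, with H3K4me3 running past the higher end in 434 and past the lower end in 434.

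An edge of one mark often fell close to an edge of the other. In the 2263 regions with a single H3K4me3 region, the nearer pair of edges was 74 bp apart at the median and the farther pair 294 bp. The nearer pair lay within 50 bp in 857 (37.9%) and within 100 bp in 1406 (62.1%). Both pairs lay within 100 bp in 373 (16.5%), and in 386 (17.1%) both were more than 200 bp apart. The rule asks for overlap, and the regions of both marks are short, which keeps edges close. No reference distance was made, so these values are a description.

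The 6 dual-mark regions with the most shared bases measured 1683 to 1981 bp and had 1243 to 1648 bp in both marks. On chromosome 11 at 25276156 to 25277845, a region of 1690 bp shared 1648 bp with an H3K4me3 region of 1666 bp, and the next H3K27me3 region was 43443 bp away. On chromosome 1 at 25722940 to 25724683 (1744 bp), 1611 bp were shared, and the H3K4me3 summits of the 2 lists lay 1 bp apart, at 25723537 and 25723538. It was followed by chromosome 12 at 27359311 to 27361291 with 1442 bp shared, and chromosome 4 at 551707 to 553567 with 1248 bp. On chromosome 5 at 24643851 to 24645736 and on chromosome 2 at 20196552 to 20198234, 1312 bp and 1243 bp were shared with 2 H3K4me3 regions each. All 6 had a high rank by deposited fold enrichment in H3K27me3 replicate 1, between percentile 84.4 and 99.8 of that list, and a lower one in replicate 2, between 12.9 and 83.6. Fold enrichment is the peak caller's ratio over its background, as the authors deposited it, and is used here only as a rank within 1 list.

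The 5 longest regions with 1 enclosed H3K4me3 region held its summits 237.5 to 856 bp from the centre. On chromosome 1 at 35129394 to 35131389 (1996 bp), 327 bp of H3K4me3 had its summits 237.5 and 280.5 bp above the centre. On chromosome 11 at 7215021 to 7217016 (1996 bp), 213 bp of H3K4me3 lay 685.5 and 743.5 bp above the centre, and the H3K27me3 replicate 1 peak there measured 5984 bp. The other 3 lay on chromosome 5 at 12307276 to 12309265, chromosome 11 at 6039314 to 6041300 and chromosome 5 at 9145775 to 9147755, with 263 to 402 bp of H3K4me3.

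The longest dual-mark regions lying inside H3K4me3 measured 926 to 1059 bp. That of 1059 bp was found on chromosome 3, from 12906387 to 12907445, in an H3K4me3 region of 1080 bp. On chromosome 12 at 16391707 to 16392740 (1034 bp), the H3K27me3 rank was percentile 97.6 in replicate 1 and 53.9 in replicate 2. On chromosome 7 at 19362697 to 19363657 (961 bp), the H3K4me3 peak was among the strongest, at percentiles 91.9 and 98.0 of the H3K4me3 lists, while H3K27me3 stood at 77.8 and 18.8. The others were on chromosome 1 at 15393999 to 15394925 and chromosome 10 at 20098829 to 20099754.

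H3K4me3 summits, the positions of highest signal that the caller gave for each narrow peak, lay mostly inside the dual-mark regions. The median distance from the centre was 161.5 bp (quartiles 76.0 and 314.6 bp) in H3K4me3 replicate 1 and 150.5 bp (72.0 and 280.5 bp) in replicate 2, or 156 ± 7.78 bp (mean ± SD, n = 2 lists). As a relative offset, where 0 is the centre and 1 the edge of the H3K27me3 region, it was 0.470 ± 0.011. The summit lay inside the H3K27me3 region in 84.6% (83.1 to 85.9%) and 88.1% (86.7 to 89.3%). Both lists placed it inside in 1978 regions (80.1%), and in 185 neither did. The overlap that chose the regions favours summits inside them, so these shares are a description.

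The distance in bp was longest in the longest regions, and the relative offset largest in the shortest. The distance was 109 ± 7.07 bp under 500 bp, 147 ± 1.77 bp at 500 to under 1000 bp and 298 ± 9.90 bp at 1000 to under 2000 bp (mean ± SD, n = 2 lists). The relative offsets were 0.638 ± 0.047, 0.418 ± 0.007 and 0.445 ± 0.015. Among summits that lay inside, 24.9% and 25.2% in the 2 lists were in the innermost of 5 equal steps from centre to edge and 11.1% and 10.6% in the outermost. The outermost step held the fewest in each length class and list. The overlap rule and the widths of the H3K4me3 peaks bear on where summits can lie, so these steps too are a description. With H3K27me3 replicate 1 alone the mean relative offset was 0.394 and with replicate 2 alone 0.487.

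**Figure D2:**
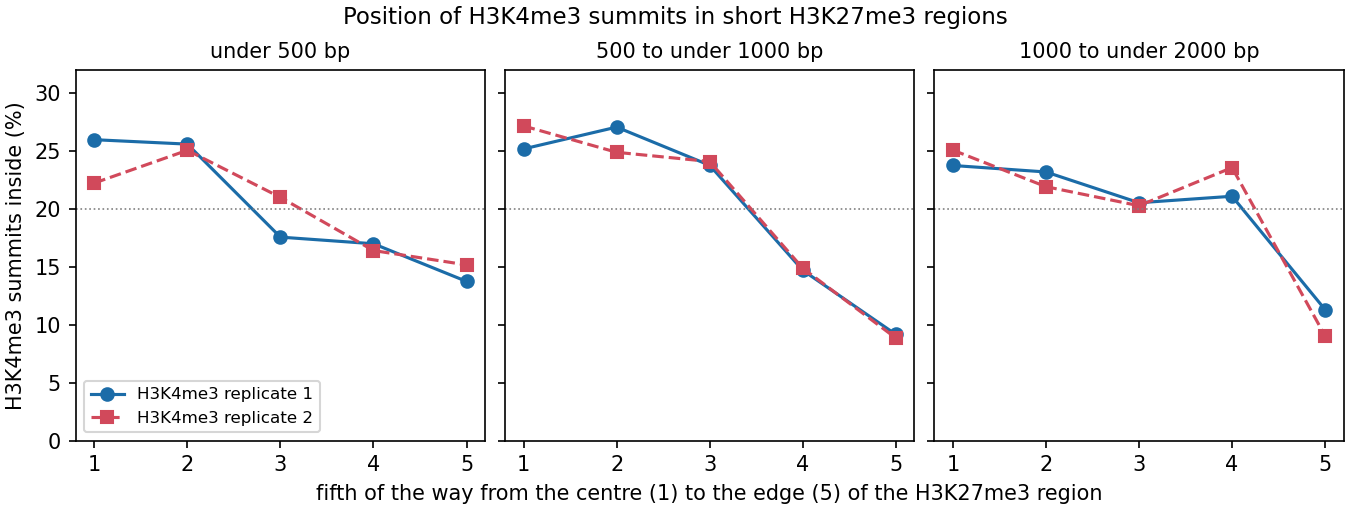
Share of H3K4me3 summits inside short dual-mark regions (%) by 5 equal steps from the centre (1) to the edge (5), for 3 length classes; solid lines are H3K4me3 replicate 1, dashed lines replicate 2, and the dotted line marks equal shares. In each panel the outermost step is the lowest point of both lists. The dotted line is a guide and no expected value.

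The arrangement went with the offset. Enclosed H3K4me3 regions had summits at a relative offset of 0.337 ± 0.011, staggered ones at 0.741 ± 0.024 and enclosing ones at 0.642 ± 0.008 (mean ± SD, n = 2 lists). The edges that define the arrangement also limit where a summit can lie, so these offsets are a description. The 2 H3K4me3 lists placed their summits 83 bp apart at the median (quartiles 26 and 209 bp), within 100 bp in 1397 regions (56.6%), and on the same side of the centre in 1900 (77.0%). The median signed offset was −5.25 bp in replicate 1 and −8 bp in replicate 2, which is small beside the distances themselves.

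Dual-mark regions stood farther from other H3K27me3 than single-mark regions of like length. The gap to the next H3K27me3 region of any length had a median of 1620 bp (quartiles 559 and 10501 bp). For single-mark regions, weighted to the same lengths in bins of 100 bp, it was 598 bp (383 and 1735 bp), a ratio of 2.71. The difference was larger for the shortest regions, with 3012 bp against 675 bp under 500 bp, 1793 bp against 584 bp at 500 to under 1000 bp, and 844 bp against 550 bp above. Within 1000 bp of another H3K27me3 region lay 39.6% (37.7 to 41.6%) of the dual-mark and 65.1% of the single-mark regions, and 74.2% and 90.6% had one within 10000 bp.

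Long H3K27me3 regions were also more distant. The next region of 2000 bp or more lay 59238 bp away at the median for dual-mark regions and 24202 bp for single-mark regions of like length. In the 100 kb on either side there were a median of 11 other H3K27me3 regions for the former and 13 for the latter. Those inside an H3K4me3 region stood most apart, 5281 bp from the next H3K27me3 region, and those enclosing 1 H3K4me3 region least, at 1040 bp. Staggered regions lay between these, at 2398 bp. These medians are not matched for length: regions inside H3K4me3 were also the shortest and those enclosing it longer, and the gap was itself smaller for longer regions.

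The spacing held for each H3K27me3 list alone. The medians were 2390 bp against 706 bp in replicate 1 (ratio 3.39) and 1273 bp against 599 bp in replicate 2 (ratio 2.13). Part of the short gaps come from 1 long peak of one library that meets several peaks of the other: 24.1% of the dual-mark and 44.1% of the single-mark regions of like length were such pieces. Without them, a comparison added after the data were seen, the medians were 3819 bp and 1406 bp, and the ratio was 2.72. Regions are not replicates, so no test was made over them.

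**Figure D3:**
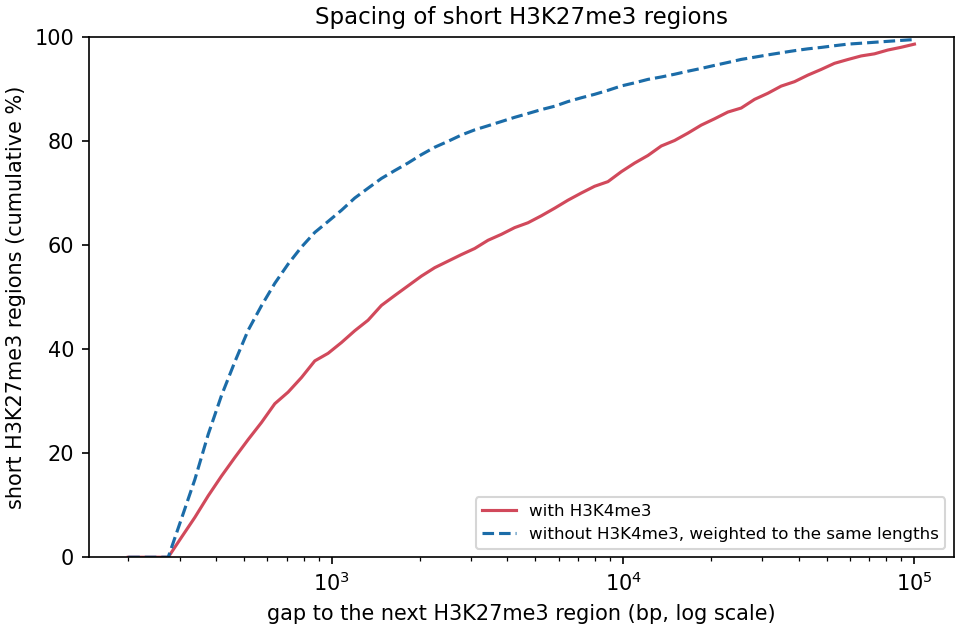
Cumulative share of short H3K27me3 regions (%) by the gap to the next H3K27me3 region (bp, log scale); the solid line shows the 2468 dual-mark regions and the dashed line the 11800 single-mark regions weighted to the same lengths. At 1000 bp the lines stand at 39.6% and 65.1%.

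Distances from one dual-mark region to the next differed little from the distances of single-mark regions to a dual-mark one. The next dual-mark region was 31434 bp away at the median, against 34136 bp from a single-mark region of like length to the next dual-mark region. At 1000 to under 2000 bp the distances were 28331 bp and 35621 bp. The nearest H3K27me3 neighbour was itself dual-mark for 508 regions (20.6%), against 11.9% for single-mark regions of like length. For 1727 (70.0%) it was a short single-mark region. H3K4me3 was a little closer: the next H3K4me3 region not overlapped lay 4485 bp away, against 5818 bp from a single-mark region of like length. The rule itself used H3K4me3, and only dual-mark regions have an overlapped H3K4me3 region to leave out. These distances to H3K4me3 are therefore a description. A single H3K4me3 region seldom joined H3K27me3 regions: of the 2668 that overlapped dual-mark regions, 12 overlapped 2 H3K27me3 regions, and 0 also touched one of 2000 bp or more. The smallest gap between H3K27me3 regions was 277 bp, and these H3K4me3 regions had a median length of 379 bp. The lists thus left little room for such joins, and the count is a description.

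The stretch of 1 Mb with the most dual-mark regions lay on chromosome 9, from 15726944 to 16721217. It held 25 of them, among 80 H3K27me3 regions under 2000 bp and 100 H3K4me3 regions. They measured 230 to 1930 bp, 12 enclosed a single H3K4me3 region, and their median gap to the next H3K27me3 region was 1341 bp.

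The replicates of H3K27me3 ranked the dual-mark regions differently. By deposited fold, the peaks under them had a median percentile of 70.0 (quartiles 47.3 and 85.5) in the replicate 1 list and 25.8 (7.92 and 53.0) in the replicate 2 list. Single-mark regions of like length had 66.0 and 61.8. The difference was thus 3.93 in replicate 1 and −36.0 in replicate 2, a mean of −16.1 ± 28.3 (SD, n = 2 lists; exact sign-flip permutation test, two-sided p = 1, where 2 lists cannot give less than 0.5). The medians of the 2 lists were close for single-mark regions and far apart for dual-mark ones. In replicate 2, 49.3% of the dual-mark regions were in the lowest 25% of the list by fold, against 14.9% of single-mark ones. In replicate 1 the lowest 25% held 9.16% and 8.35%.

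This gap between the lists was seen in each length class. Under 500 bp the median percentile was 47.4 in replicate 1 and 8.96 in replicate 2, at 500 to under 1000 bp 70.3 and 22.5, and at 1000 to under 2000 bp 84.3 and 53.4. Single-mark regions of like length had 53.7 and 45.6, 65.2 and 59.7, and 76.5 and 75.2. At or above the median of replicate 1 but not of replicate 2 were 1123 dual-mark regions (45.5%), against 18.5% of single-mark regions. The reverse held for 28 (1.13%), against 12.2%. In replicate 1 the sign of the difference depended on length, at −6.31 under 500 bp and 5.03 and 7.82 in the longer classes. It also depended on how the regions were made: it was −12.3 with that list alone and −0.35 with stricter peaks. In replicate 2 the difference was below 0 in each length class and in the 11 other settings tried.

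The deposited −log10 q, the caller's significance, was higher in dual-mark regions in replicate 1 and slightly lower in replicate 2. It had a median of 5.85 in dual-mark and 3.69 in single-mark regions of like length in replicate 1, and of 2.91 and 3.17 in replicate 2, where the longest class had 4.202 and 4.190. As percentiles of −log10 q in each list, the medians differed by 19.3 in replicate 1 and −5.77 in replicate 2. The larger of these differences was thus upward, whereas by fold the larger one was downward. Within the dual-mark regions the 2 H3K27me3 lists still ordered the peaks alike (Spearman correlation 0.63 over 2468 regions), and the correlation was 0.45 over the 11800 single-mark regions. The H3K27me3 and H3K4me3 ranks were almost unrelated (−0.045 to 0.064 over the 4 pairings). These correlations run across regions of the same libraries and are a description. They are not weighted for length, and the H3K27me3 ranks rose with length in both lists.

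**Figure D4:**
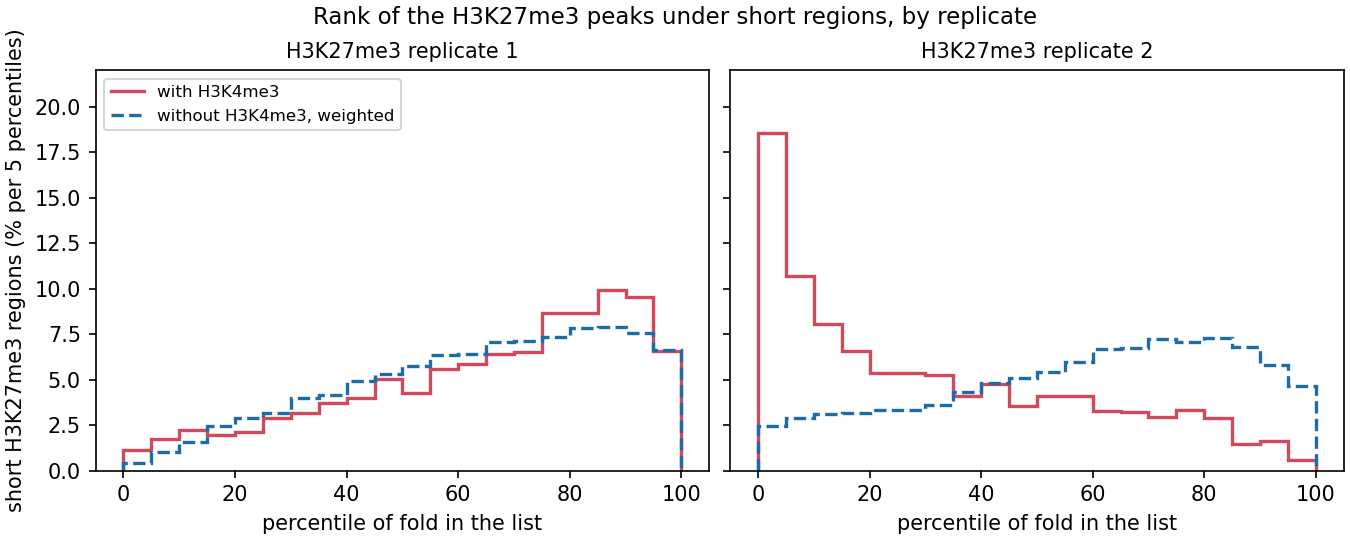
Distribution of short H3K27me3 regions (% per 5 percentiles) over the percentile of deposited fold within the H3K27me3 replicate 1 list (left) and replicate 2 list (right); solid lines are dual-mark regions and dashed lines single-mark regions weighted to the same lengths. The lines lie close in replicate 1 (medians 70.0 and 66.0) and part in replicate 2 (25.8 and 61.8).

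The replicate 1 peaks under the regions were mostly the wider ones. The replicate 1 peak was wider in 87.9% of the dual-mark regions, against 65.7% of single-mark regions of like length. Its median width was 1266 bp, against 1293 bp in single-mark regions of like length. That of the replicate 2 peak was 744 bp, against 907 bp. The region kept a median of 56.8% of the span of the 2 peaks, against 48.7%. In 20.6% the replicate 1 peak reached 2000 bp, against 29.8%, and in 3.20% the replicate 2 peak did, against 9.07%. At least 1 of the peaks did so in 571 regions (23.1%), against 36.9% of single-mark regions. Long peaks were thus less frequent under dual-mark regions.

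H3K27me3 rank also went with the arrangement. Regions enclosing 1 H3K4me3 region had medians of percentile 80.6 and 44.4 in the 2 H3K27me3 lists, staggered ones 55.8 and 14.0, and those inside H3K4me3 38.5 and 5.58. The H3K4me3 ranks ran the other way. The enclosed H3K4me3 peaks had medians of 22.8 and 32.6 in the 2 H3K4me3 lists, the staggered ones 33.0 and 38.5 and the enclosing ones 43.7 and 51.9. The rank of each mark was thus highest where that mark was the wider one, and since fold and width belong to the same peaks, and the arrangements differ in length, this is a description.

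H3K4me3 peaks over dual-mark regions ranked low in their own lists. Their median percentile of fold was 27.6 (2599 peaks) in replicate 1 and 35.3 (2665 peaks) in replicate 2, against 55.9 and 53.0 for peaks without H3K27me3, a difference of −23.0 ± 7.51 (mean ± SD, n = 2 lists; exact sign-flip permutation test, two-sided p = 0.5, the smallest possible). Of them, 3.35% and 11.97% were in the top 25% of their lists. Peaks over H3K27me3 regions of 2000 bp or more ranked near them, at 22.9 and 34.0, a difference of 3.03 ± 2.37 (exact sign-flip permutation test, two-sided p = 0.5). The H3K4me3 regions over dual-mark regions had a median length of 379 bp, those over long H3K27me3 alone 349 bp and those without H3K27me3 426 bp.

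Few dual-mark regions ranked high in all lists. At or above the median of both H3K27me3 lists were 26.5% of the dual-mark regions, against 51.6% of single-mark regions of like length. At percentile 75 it was 9.04% against 20.0%. Single-mark regions hold no H3K4me3 region, so a count over all 4 lists has no such counterpart. H3K4me3-bearing regions of 2000 bp and over were not counted in this way. Whether the low counts are particular to short regions was therefore not tested. At least the median of all 4 lists was reached by 66 of the 2468 (2.67%) and percentile 75 by 3 (0.122%). These 3, chosen after their values were seen, lay on chromosome 2 at 5112300 to 5112846, chromosome 2 at 24118325 to 24120260 and chromosome 8 at 2170578 to 2171194. The last, 617 bp long with 491 bp of enclosed H3K4me3, stood at percentiles 87.2 and 89.6 in the H3K27me3 lists and at 85.0 and 99.9 in the H3K4me3 lists. In each of the 3 the replicate 1 H3K27me3 peak was over 2000 bp, at 2836, 3606 and 4176 bp, and another H3K27me3 region lay 281, 307 and 577 bp away.

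Along the genome, the share of short H3K27me3 regions that were dual-mark varied modestly. It was lowest on chromosome 12, at 13.5% (11.5 to 15.8%), and chromosome 11, at 14.6% (12.9 to 16.6%), and highest on chromosome 7, at 18.95% (16.7 to 21.5%). The other 9 chromosomes lay between 16.4% and 18.8%, with overlapping intervals. Chromosomes 11 and 12 together had 14.2%, against 17.9% elsewhere, a difference of −3.76 points. With H3K27me3 replicate 1 alone this was −6.91 points and with replicate 2 alone −3.52 points. With the length classes weighted alike, chromosome 12 had 13.8% and chromosome 11 14.8%.

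H3K4me3 itself was sparsest on these chromosomes, with 43.8 regions per Mb on chromosome 11 and 45.3 on chromosome 12, against up to 92.5 on chromosome 3. Dual-mark regions varied less, from 4.87 per Mb on chromosome 12 to 7.31 on chromosome 3, a 1.501-fold range against 2.11-fold for H3K4me3. Short single-mark regions had a like range, 1.44-fold, from 28.1 to 40.4 per Mb. Chromosome 11 had 6.93 dual-mark regions per Mb, and with few H3K4me3 regions this made 16.7% of its H3K4me3 regions, against 8.53% on chromosome 1. It also had the most short single-mark regions, 40.4 per Mb, so that its low share of dual-mark regions stands beside many single-mark ones. The rule favours a lower share where H3K4me3 is sparse, so the shares by chromosome are a description.

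**Figure D5:**
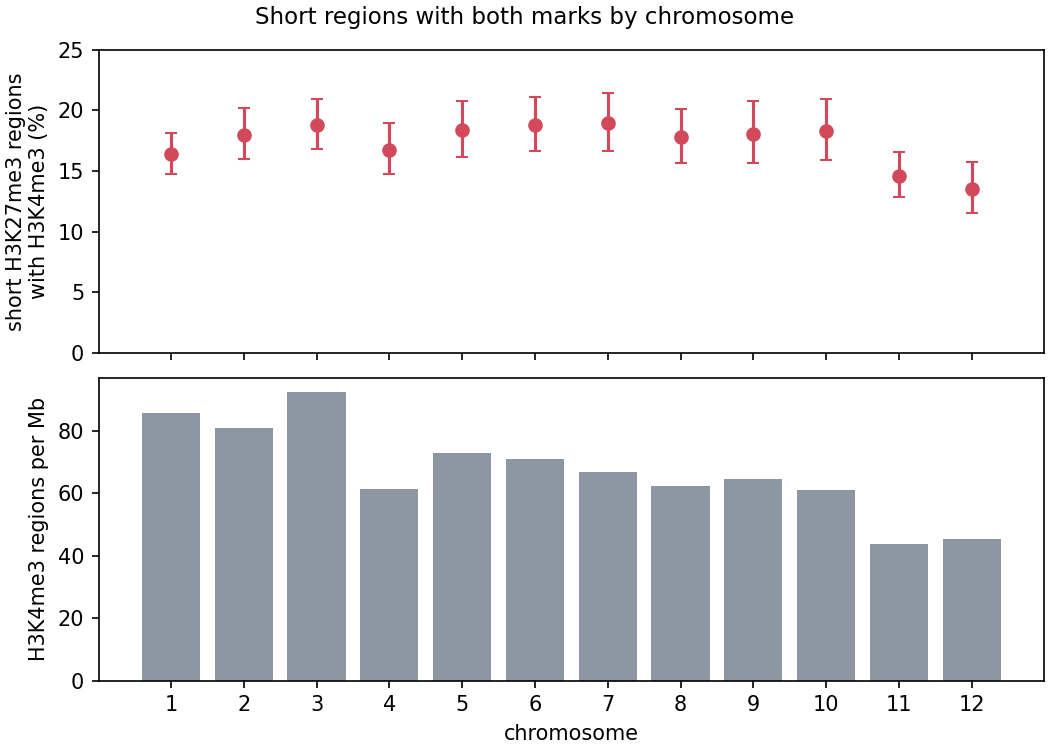
Upper panel: share of short H3K27me3 regions that carry H3K4me3 (%) on each of the 12 chromosomes, with 95% Wilson intervals; lower panel: H3K4me3 regions per Mb of chromosome. Chromosomes 11 and 12 are lowest in both panels, at 14.6% and 13.5% and at 43.8 and 45.3 per Mb.

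Dual-mark regions were most frequent near chromosome ends and where H3K4me3 was dense. The rule asks for an H3K4me3 region, which favours a higher share where these are denser, so these shares are a description. Distance from the ends and density of H3K4me3 were not separated. Within 1 Mb of an end, 22.02% (19.7 to 24.5%) of the short H3K27me3 regions were dual-mark, against 16.2% (15.2 to 17.2%) at 5 to 10 Mb and 16.6% beyond. Sorted into 5 groups by the number of other H3K4me3 regions within 100 kb, the share was 14.8% with 0 to 8 and 9 to 13 of them, 16.9% with 14 to 17, 18.8% with 18 to 22 and 21.8% (20.2 to 23.4%) with 23 or more. With length classes weighted alike the lowest and highest groups had 15.0% and 21.5%. With each chromosome split into 5 equal stretches, their density fell from 7.68 per Mb in the first to 4.41 in the middle and was 8.53 in the last. H3K4me3 regions went from 79.2 to 42.2 and 103 per Mb over the same stretches. Single-mark regions took a like course, with 36.4, 22.8 and 36.9 per Mb in the first, middle and last stretch. The dual-mark share of short regions varied little, at 17.4%, 17.6%, 16.2%, 16.1% and 18.8% from the first to the last. The place of each end was taken from the last peak, and gaps in the assembly were not checked.

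The rule has 2 thresholds, and few regions lay close to either. The 3 members nearest the length limit measured 1996, 1996 and 1995 bp, and the 3 H3K4me3-bearing regions next above it 2000, 2001 and 2005 bp. The third of the former, on chromosome 11 at 11050153 to 11052147, was staggered with 845 bp shared. From 1900 bp to the limit there were 47 members, and 42 H3K4me3-bearing regions from the limit to 2100 bp. At the other threshold, 41 members shared under 50 bp, and 13 single-mark regions lay under 50 bp from an H3K4me3 region. The smallest overlaps were 1 bp on chromosome 3 at 2313931 to 2314574, where the H3K4me3 region itself is 1 bp long, 1 bp on chromosome 6 at 17197157 to 17197275, and 2 bp on chromosome 2 at 23846348 to 23846349. The nearest misses, on chromosomes 9 and 10, were 1, 3 and 6 bp from H3K4me3.

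With stricter peaks the set shrank more than its share. When each list was first limited to a −log10 q of 5 or more, 232 dual-mark regions of 1384 short H3K27me3 regions were left, or 16.8% (14.9 to 18.8%), and all 232 overlapped regions of the full set. Of these, 81.9% enclosed 1 H3K4me3 region, and 1 in the set, or 0.431%, lay inside H3K4me3. Their summits had a relative offset of 0.360. The next H3K27me3 region was 20786 bp away, against 1923 bp for single-mark regions of like length.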

How the data were processed

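Peak lists of 4 libraries were analysed. Tools listed in the submitters' processing notes are MACS2, deepTools, SAMtools, Picard, Bowtie2 and fastp, without versions, control or thresholds. H3K4me3 lists are narrow peaks with summits and H3K27me3 lists broad peaks without. Peak names carry the tags merge, uniq and subsample in 3 of the lists, so the authors may have handled the libraries differently. The deposited fold enrichment is the authors' ratio over the caller's background. The deposited −log10 p and −log10 q are the caller's, and the deposited score restates −log10 q and was not used.

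Groups came from sample titles. Members, comparisons and named regions were chosen with earlier results of these data known. Regions of a mark are the bases in both of its lists, with touching pieces joined. The named regions are the 6 with the most shared bases, the 5 longest of 2 arrangements, those nearest the thresholds, and the densest 1 Mb. A region's rank is that of the peak sharing most bases with it. Single-mark values were weighted to the dual-mark lengths in bins of 100 bp. Wilson intervals are 95%. The 2 lists of a mark were tested with an exact sign-flip permutation test, whose smallest two-sided p is 0.5. Python 3.11.15, numpy 2.4.6, scipy 1.17.1 and matplotlib 3.10.9 were used, and the interval code was tested on simulated data. Genes were not named, since no source ties the lists to the assembly of the gene table at hand.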

Additional observations from a re-analysis of the deposited data

How the results depend on the processing

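The values moved with the lists and with how regions were made, in the 11 other settings tried, 2 of them (joining over 1000 bp, leaving out split peaks) added after seeing the data. No mean difference in rank by fold changed direction, though the H3K27me3 replicate 1 part did, as given above. Ranks by −log10 q, where the larger H3K27me3 difference was upward, were not followed through these settings. The number of dual-mark regions, 2468, was 232 with −log10 q limited to 5 or more and 2440 to 3830 with 1 library left out, the highest without H3K27me3 replicate 2, where 1960 of the 2468 were overlapped. The share enclosing 1 H3K4me3 region, 46.9%, was 81.9% with that limit, 50.8% when 50% of the shorter region had to overlap, 37.4% under 1000 bp, 49.0% with pieces up to 200 bp apart joined, 65.8% with the union of overlapping peaks, 40.9% with H3K27me3 pieces up to 1000 bp apart joined, 43.5% without pieces of split peaks, and 32.7 to 58.4% with 1 library left out. In the same settings the relative summit offset, 0.470, was 0.360, 0.445, 0.483, 0.470, 0.354, 0.539, 0.473 and 0.394 to 0.487. The spacing ratio, 2.71, was 10.8 with −log10 q limited and 2.13 to 3.39 with 1 library left out. It was lowest, at 2.05, with H3K27me3 pieces up to 1000 bp apart joined. The difference of chromosomes 11 and 12 from the others, −3.76 points, was −6.32 with the union, −9.40 with pieces up to 1000 bp apart joined, −6.40 without split peaks and −6.91 to −3.52 with 1 library left out. The share with the wider peak in H3K27me3 replicate 1, 87.9%, was 90.8% under 1000 bp and 85.2 to 90.2% with 1 library left out. With 1 library left out the mean rank differences were −23.5 to −11.6 for H3K27me3 and −24.8 to −22.8 for H3K4me3. The causes were not tested. Of the 20 members named by rule, 5 to 20 stayed members in each setting. Depth is unknown, so what deeper libraries would add cannot be told. No paired analysis was possible because the comparisons are within each list, and replicate numbers of the 2 marks share no fit.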

Other observations

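Members with 3 H3K4me3 regions, chosen after their values were seen, numbered 7 and lay on chromosomes 2, 3, 8, 9 and 10, with 3 of them on chromosome 3. The longest, on chromosome 3 at 1225828 to 1227807 (1980 bp), had 1055 bp in H3K4me3 and summits 348.5 and 330.5 bp above its centre. The shortest, on chromosome 3 at 27235667 to 27236537 (871 bp), had 462 bp in H3K4me3 and stood at percentile 92.6 of H3K27me3 replicate 1 and 16.8 of replicate 2. On chromosome 9 at 15281863 to 15282791 (929 bp) the summits of the 2 H3K4me3 lists lay 68 and 87 bp above the centre. On chromosome 2 at 13096603 to 13098052 (1450 bp) the summit of H3K4me3 replicate 1 had an offset of −927.5 bp from the centre, outside the region, and that of replicate 2 one of −96.5 bp.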
